A study of Mus musculus with 66 samples.

Results

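Islands of H3K9me3 and H3K36me3 were described in 3 clusters of zinc-finger genes of the mouse genome (GRCm38): chr2:174500001-178500000, chr4:145000001-148000000 and chr13:65000001-68500000. Every island of either mark that overlapped one of these windows was taken, whatever its values, which gave 24145 of the 2049744 islands in the 44 lists. Of these, 14579 were H3K9me3 islands (of 1239421) and 9566 were H3K36me3 islands (of 810323). An island is a run of 200-bp steps that the caller SICER listed as a candidate enriched stretch and compared with the input. The lists were not filtered on that comparison, so many islands are not in significant excess of input. The material was prefrontal cortex (PFC) of DBA/2J mice, an inbred strain, of both sexes. Mice received 4 g/kg ethanol (25% w/v) or water by gavage on intermittent days between postnatal day (PND) 29 and PND 42, and PFC was taken 24 h past the final gavage. Tissue of 3 mice of one sex and treatment was pooled, with 6 ethanol and 5 water pools per sex, and all pools shared the strain, the age and the gavage. Each of the 22 pools gave an H3K9me3, an H3K36me3 and an input library (66 samples). The pools of a group are separate samples in the labels, so the spread between them includes differences between animals only as far as 3 mice per pool carry them. PFC is a mixed tissue, in which a change in the share of a cell type and a change within its cells cannot be told apart.

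C2H2 zinc-finger proteins bind DNA through tandem fingers, and many carry a KRAB domain that recruits the corepressor TRIM28 (KAP1) and the methyltransferase SETDB1, which deposits H3K9me3. KRAB zinc-finger genes lie in tandem clusters that grew by duplication, and many of their proteins silence retroelements. The bodies of zinc-finger genes, and above all their finger-coding exons at the 3′ end, are known to carry H3K9me3 themselves, often together with H3K36me3, which is otherwise a mark of transcribed gene bodies laid down by SETD2.

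The windows held 127 annotated protein-coding genes (GENCODE vM21), 52 on chromosome 2, 31 on chromosome 4 and 44 on chromosome 13. At least 3 C2H2 finger patterns were found in the translated coding sequence of 85 of them (36, 19 and 30), against 583 of 21853 genes in the genome. A KRAB pattern was found in 35 of 36, 19 of 19 and 18 of 30 of these zinc-finger genes. The median number of fingers was 13, 12 and 14. The label of the windows as zinc-finger clusters therefore held for all 3, with chromosome 13 having the smallest share of matches to the KRAB pattern. The pattern is strict, so a diverged KRAB domain or an incomplete gene model would not be counted.

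The sequence that joins one finger to the next shows how alike these genes are, and bears on which of them a 150-base read can be assigned to. The lines below give, for a pair of genes of each window, 150 bases on the coding strand from the first linker of the last coding exon (GRCm38.p6), with capitals for the linker codons that match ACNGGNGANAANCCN.
Gm14412 (chr2:177315576-177315725, minus strand): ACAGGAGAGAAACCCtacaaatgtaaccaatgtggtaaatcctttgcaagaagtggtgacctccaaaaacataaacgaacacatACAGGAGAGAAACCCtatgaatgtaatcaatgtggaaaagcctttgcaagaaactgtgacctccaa
Gm11007 (chr2:175652739-175652888, plus strand): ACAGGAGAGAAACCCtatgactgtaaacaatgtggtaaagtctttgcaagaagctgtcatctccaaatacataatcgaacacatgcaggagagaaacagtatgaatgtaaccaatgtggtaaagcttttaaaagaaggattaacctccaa
Zfp982 (chr4:147512560-147512709, plus strand): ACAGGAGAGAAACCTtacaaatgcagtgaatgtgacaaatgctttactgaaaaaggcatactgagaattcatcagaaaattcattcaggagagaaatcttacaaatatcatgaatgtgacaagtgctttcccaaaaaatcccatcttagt
Zfp985 (chr4:147583373-147583522, plus strand): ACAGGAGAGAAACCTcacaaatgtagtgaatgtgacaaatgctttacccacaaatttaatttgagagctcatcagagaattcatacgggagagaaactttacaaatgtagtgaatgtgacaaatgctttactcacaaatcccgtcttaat
Gm10324 (chr13:66121313-66121462, plus strand): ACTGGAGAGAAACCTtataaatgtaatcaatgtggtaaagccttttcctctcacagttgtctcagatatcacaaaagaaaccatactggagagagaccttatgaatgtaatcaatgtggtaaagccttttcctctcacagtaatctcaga
2410141K09Rik (chr13:66431982-66432131, minus strand): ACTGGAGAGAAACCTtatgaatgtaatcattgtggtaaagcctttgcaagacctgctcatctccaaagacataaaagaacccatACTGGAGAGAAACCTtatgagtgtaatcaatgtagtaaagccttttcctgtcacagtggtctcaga

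Within a window, the printed stretches shared most of their bases: 83.3% between Gm14412 and Gm11007, 81.3% between Zfp982 and Zfp985 and 82.7% between Gm10324 and 2410141K09Rik. Between windows the identity reached 80.0% (Gm14412 and 2410141K09Rik) and was lowest for Gm11007 and Zfp982, at 57.3%. The whole stretch of Gm11007 occurs at 8 places of the genome and that of Gm10324 at 2, whereas the other 4 stretches occur at 1 place each. The central 50 bases occur at 19 places for Gm14412, 10 for Gm11007, 3 for 2410141K09Rik and 2 for Gm10324. For Zfp982 and Zfp985 they occur at 1 place each. Reads that mapped to several places had been discarded by the authors for H3K9me3, so a repeated stretch can be without an island for want of reads.

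The linker motif was searched on both strands, and islands of these windows held it more often than those of the autosomes as a whole. Regions here are positions under an island in 11 or more of the 22 pools. Of these, 58 of 640 H3K9me3 regions in the windows (9.06%) held the motif, compared with 210 of 45689 over all autosomes (0.460%), with median lengths of 2600 and 2800 bp. For H3K36me3 it was 33 of 430 (7.67%) against 61 of 29025 (0.210%). By window, 1.39% of the H3K9me3 regions on chromosome 2, 6.95% on chromosome 4 and 13.5% on chromosome 13 held it. The windows have 170, 95.4 and 165 matches per Mb of known sequence and the autosomes 3.78 per Mb. Of these matches, H3K9me3 islands of at least 11 pools covered 2.31% on chromosome 2, 80.4% on chromosome 4 and 47.1% on chromosome 13, and H3K36me3 islands covered 1.98%, 36.7% and 23.4%. The chromosome 2 window thus had the most linkers and the fewest of them under an island.

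Depth in the windows was higher for H3K9me3 than for H3K36me3. A library had 559 to 781 H3K9me3 islands in the windows with 126376 to 314206 ChIP reads (1.76 to 2.76% of its island reads of 5.73 to 14.2 M). It had 333 to 569 H3K36me3 islands with 28507 to 96657 reads (1.29 to 2.25% of 1.70 to 4.79 M). Only reads inside listed islands could be used. An island FDR of at most 0.01 held for 13787 of the H3K9me3 islands (94.6%) and 5689 of the H3K36me3 islands (59.5%).

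H3K36me3 libraries stood apart in how much of their signal lay in genes. Gene bodies make up 40.4% of the genome, and islands of FDR at most 0.01 held less than this share of gene bodies in 11 of 22 H3K36me3 libraries: among males 5 of 6 ethanol and 0 of 5 water pools, and among females 3 of 6 and 3 of 5. The share ranged from 21 to 68.4% for H3K36me3 and from 15.6 to 16.6% for H3K9me3. Among H3K9me3 libraries, female water pool 2 stood apart in the number of islands of FDR at most 0.01, with 12804 against 32574 to 62374 in the others. Of the marker genes, 3 of 7 neuronal, 1 of 4 oligodendrocyte, 1 of 3 astrocyte and 1 of 2 microglial genes had a listed H3K36me3 island in at least 11 pools, as did 2 of 5 genes that cortex does not use (Krt5 and Ins2, 12 pools each). With islands of FDR at most 0.01 it was 2 of 7, 0 of 4, 0 of 3, 1 of 2 and 0 of 5. H3K36me3 coverage, the counts of regions and bins and the named regions are therefore also given for the 11 libraries at or above the genome's share. In males this leaves 1 ethanol pool against 5 water pools, and in females 3 against 2. The interaction, the shares of single genes and the overlap of the marks were not recomputed in these libraries.

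The windows on chromosomes 4 and 13 carried both marks over large parts of their length, whereas the chromosome 2 window did not. H3K9me3 islands covered 41.6% ± 3.38 of the chromosome 4 window and 38.6% ± 2.38 of the chromosome 13 window (mean ± SD, n = 22 pools), against 6.07% ± 0.843 of the other autosomal sequence. The chromosome 2 window was at 6.11% ± 1.28, level with the rest of the autosomes. H3K36me3 islands covered 22.4% ± 4.05 of the chromosome 4 window, 24.2% ± 3.09 of the chromosome 13 window and 2.91% ± 0.614 of the chromosome 2 window, against 3.77% ± 0.631 elsewhere. All these shares are of listed islands without an FDR limit. Those of H3K36me3 in the windows fell under stricter limits, as given with the dependence on processing. In each of the 22 pools, either of the windows on chromosomes 4 and 13 lay above the highest value of any pool outside the windows, for both marks (lowest 34.8 and 33.3% for H3K9me3 against 7.98%, and 16 and 17.9% for H3K36me3 against 4.77%). The H3K36me3 coverage did not hang on the libraries with weak gene-body signal: it was 20.8% on chromosome 4 and 22.8% on chromosome 13 in the pools at or above the genome's share, and 24.1 and 25.6% in those below it.

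The median fold over input of H3K9me3 islands was highest on chromosomes 4 and 13, while that of H3K36me3 islands differed less from islands elsewhere. The median fold of the islands was 1.60, 2.18 and 2.26 on chromosomes 2, 4 and 13 for H3K9me3, against 1.49 outside, and 1.33, 1.42 and 1.37 for H3K36me3, against 1.31 outside. Within islands, H3K9me3 ChIP reads per kb were 0.842, 1.21 and 1.48 times those of islands on the other autosomal sequence, while input reads per kb were 0.738, 0.787 and 0.907 times. Input reads were thus fewer in all 3 windows, and fewest in the chromosome 2 window.

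Coverage did not separate ethanol from water pools. For H3K9me3 on chromosome 4, male ethanol pools ranged from 39.4 to 48.7% (median 43.7%) and male water pools were at 41.5, 45.5, 44.7, 40.7 and 41.3%. Female ethanol pools ranged from 38.4 to 43.3% (median 40.9%) and female water pools were at 34.8, 35.2, 43.7, 43.8 and 37.9%. For H3K36me3 on chromosome 4, male ethanol pools ranged from 19.8 to 29.5% (median 23.5%) and male water pools were at 16, 22.0, 21.8, 20.8 and 23.1%. The groups overlapped in every window, mark and sex. One female ethanol pool (pool 2) was higher than the rest for H3K36me3, with 34.2% on chromosome 4 and 33.2% on chromosome 13.

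**Figure D1:**
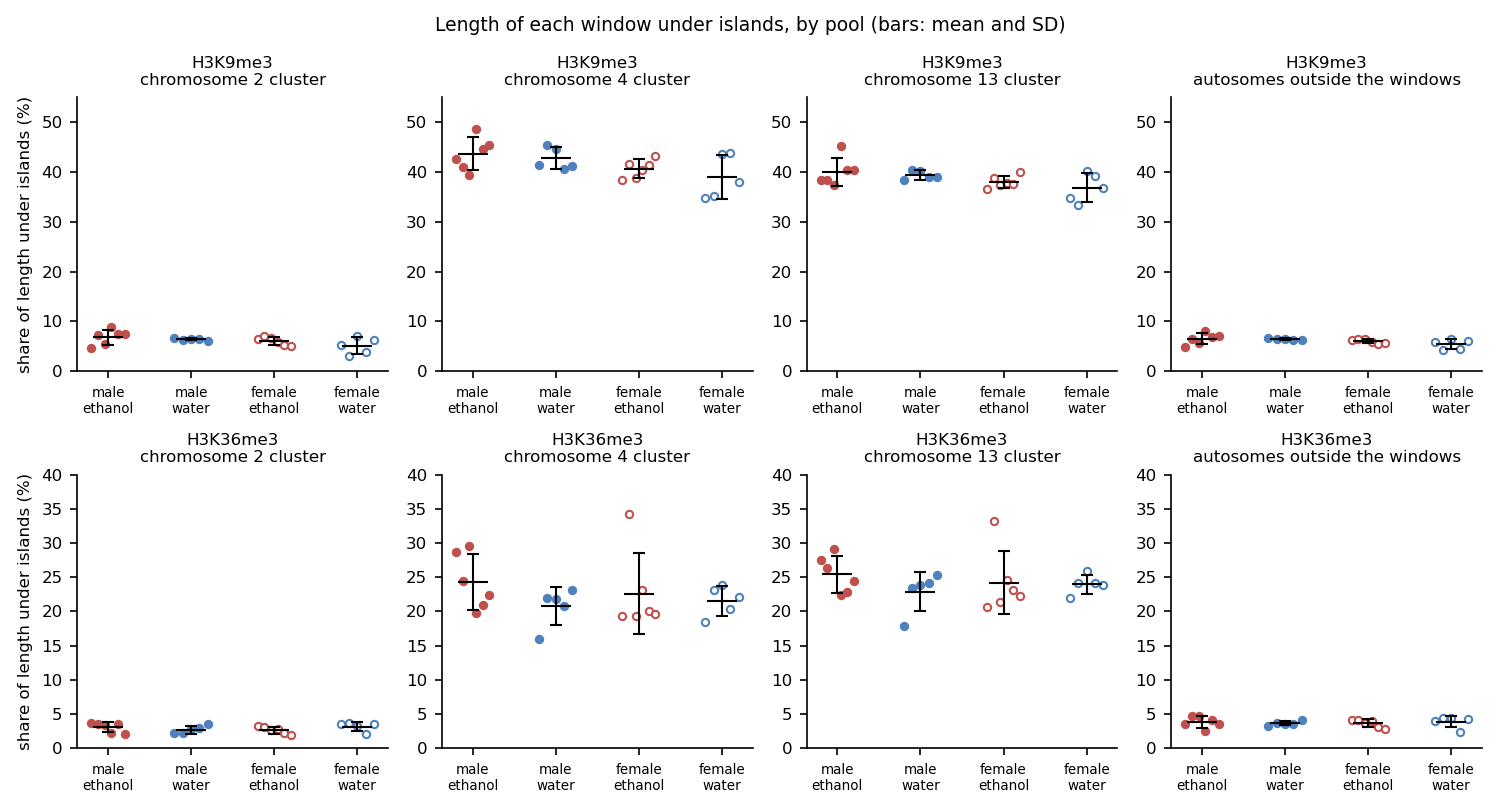
Share of each window (and of the autosomes outside the windows) under islands, in percent, with 1 point per pool by sex and treatment, bars for mean and SD, H3K9me3 in the upper and H3K36me3 in the lower row. Windows on chromosomes 4 and 13 lie far above the chromosome 2 window and the other autosomes in all 22 pools, and ethanol and water pools overlap.

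Islands recurred in part. Of the positions under an H3K9me3 island in any pool, 8.19, 36 and 43.5% on chromosomes 2, 4 and 13 were under one in all 22 pools, against 11% elsewhere on the autosomes. For H3K36me3 it was 2.45, 10.6 and 18.9%, against 2.07%. Positions covered in all 22 pools made up 21.3% of the chromosome 4 window and 23.5% of the chromosome 13 window for H3K9me3, against 1.16% of the chromosome 2 window and 1.47% of the other autosomal sequence. For H3K36me3 the shares were 5.31, 8.58, 0.270 and 0.305%. Merging positions covered in at least 11 pools gave 640 H3K9me3 regions in the windows (72, 302 and 266 on chromosomes 2, 4 and 13, 2.88 Mb in all) and 430 H3K36me3 regions (36, 196 and 198, 1.57 Mb). These regions overlapped 91.6% of the H3K9me3 and 86.4% of the H3K36me3 islands of the windows. The remaining islands were seen in fewer pools and entered the coverage and the 0.5-Mb bins only.

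The longest H3K9me3 regions were chr13:66019201-66064400 (45.2 kb, between genes, nearest start Gm10324) and chr4:145530001-145569200 (39.2 kb, over part of Zfp990). The longest of the chromosome 2 window, chr2:175043801-175052800 (9.0 kb, nearest start Gm14393), was also its longest H3K36me3 region, with the same ends. H3K36me3 regions reached 28.8 kb on chromosome 4 (chr4:145540201-145569000) and 23.2 kb on chromosome 13 (chr13:66706401-66729600). Each position of these regions was under an island in at least 11 pools, but not always in the same ones.

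Coverage was uneven along the windows. In 0.5-Mb bins, H3K9me3 coverage of the chromosome 13 window was 79.0% and 69.0% at chr13:65500001-66000000 and chr13:66000001-66500000, and 8.98% and 3.44% at chr13:67000001-67500000 and chr13:67500001-68000000. H3K36me3 followed, with 53.9, 44.7, 5.14 and 2.35% in these bins. The chromosome 4 window was covered most at chr4:147000001-147500000 (63.9% for H3K9me3 and 34.1% for H3K36me3), and the chromosome 2 window most at chr2:177500001-178000000 (13.3 and 5.48%). The last bin of the chromosome 13 window, chr13:68000001-68500000, was at 24.0 and 7.89%. The highest bins of both marks among the 3 windows were thus in the upstream part of the chromosome 13 window. Zinc-finger genes also lie in its poorly covered bins. Gm10324, Gm10772 and 2410141K09Rik lie in chr13:66000001-66500000, but Rsl1 and Zfp429 lie in chr13:67000001-67500000.

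**Figure D2:**
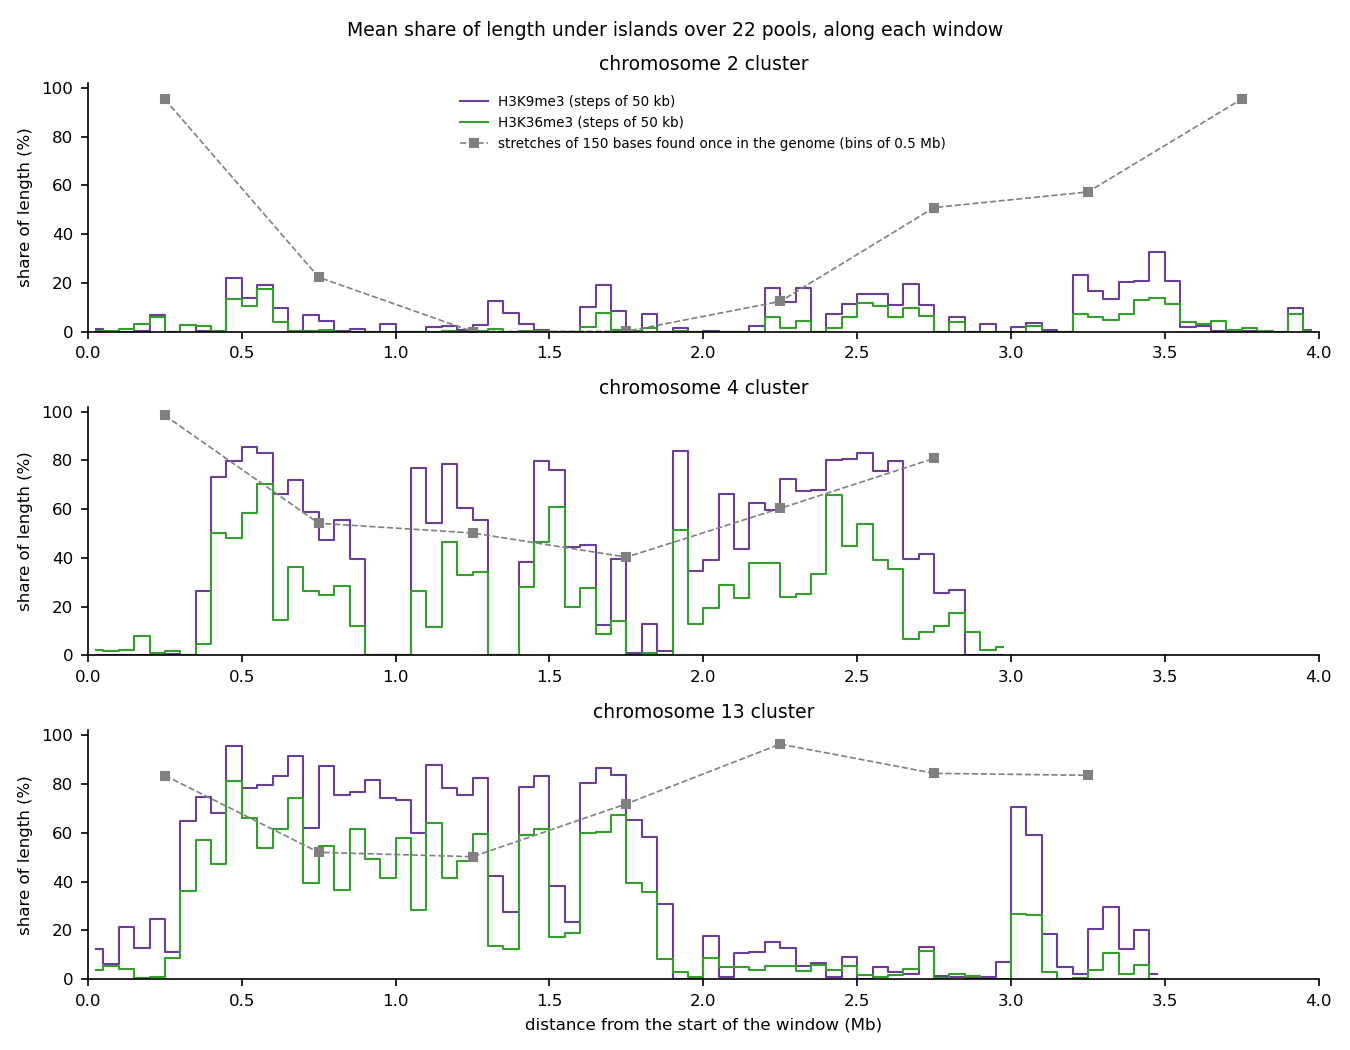
Mean share of length under islands over 22 pools in steps of 50 kb (lines, H3K9me3 and H3K36me3, in percent) and the share of 150-base stretches found at 1 place of the genome in bins of 0.5 Mb (squares), against the distance from the start of the window in Mb. H3K36me3 follows H3K9me3 at a lower level, and the middle of the chromosome 2 window has almost no stretch found at 1 place, while coverage is low there and at both ends of the window.

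The chromosome 2 window is also the one to which the fewest reads can be assigned. Stretches of 150 bases found at 1 place made up 45.2% of the chromosome 2 window, 66.8% of the chromosome 4 window and 74.6% of the chromosome 13 window, against 95.7% of the other autosomal sequence, and unknown bases 11.3, 14.4 and 0%. At chr2:175500001-176000000 and chr2:176000001-176500000 only 0.0508 and 0.131% of stretches were found at 1 place. H3K9me3 covered 6.76% of the chromosome 2 window where stretches were found at 1 place and 6.99% where they were repeated. The values were 47.1 and 51.7% on chromosome 4, 31.1 and 60.6% on chromosome 13 and 4.89 and 36.3% elsewhere. Of the unique sequence of the chromosome 2 window, much lies in its end bins, chr2:174500001-175000000 and chr2:178000001-178500000 (95.3 and 95.4% of stretches at 1 place), against 0.0508 to 57.3% in the bins between them. H3K9me3 covered 3.28 and 3.53% of these end bins, and 3.19 and 4.66% of the 2 middle bins with almost no such stretch. Of 50-base stretches, 32.9, 46.1 and 49.9% on chromosomes 2, 4 and 13 were found at 1 place, against 89.6% elsewhere. Where these were found at 1 place, H3K9me3 covered 3.75, 40.8 and 20.2%, against 3.32% elsewhere. GC content was alike (41.6, 41.5 and 41.0%, against 41.9% over the autosomes). The part of discarded reads in the low coverage of chromosome 2 was not tested.

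The bodies of zinc-finger genes were under islands on chromosome 4, in part on chromosome 13 and hardly at all on chromosome 2. On chromosome 4 the median zinc-finger gene had 67.3% of its body under H3K9me3 islands (mean over pools), 15 of 19 genes had at least 50%, and 18 of 19 had an island in all 22 pools. On chromosome 13 the median was 2.28%, with 3 of 30 genes at 50% or more, 7 with an island in all pools and 10 with no island in any. On chromosome 2 the median was 0, and 31 of 36 genes had no island in any pool. Among 487 zinc-finger genes elsewhere on the autosomes the median was 0, 5 (1.03%) were at 50% or more and 62 (12.7%) had an island in all pools. For H3K36me3, the numbers of genes at 50% or more were 4 of 19, 3 of 30 and 0 of 36, against 2 of 487 (0.411%).

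Zfp982 (chr4:147492417-147513486, 7 fingers) was the most covered zinc-finger gene of chromosome 4, with 90.3% ± 7.46 of its body under H3K9me3 and 56.6% ± 15.7 under H3K36me3 (SD, n = 22). Male ethanol pools ranged from 91.5 to 96.2% (median 94.8%) for H3K9me3 and male water pools from 80.2 to 100%. Female ethanol pools ranged from 67.9 to 93.4% (median 89.6%) and female water pools from 79.2 to 97.2%. All groups of this KRAB zinc-finger gene overlapped, in both sexes.

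Other genes of the chromosome 4 cluster were close behind. Zfp985 (chr4:147553277-147585198, 10 fingers) was at 86.3% ± 5.69 for H3K9me3, Zfp979 at 80.4% ± 7.50 and Zfp980 at 80.3% ± 7.92, which are within the spread between pools of each other. Zfp981 (chr4:146502027-146539395) was the steadiest, at 72.7% ± 1.1, with pools between 70.1 and 74.3%, and had the most H3K36me3 of the window, at 61.5% ± 7.17. The least covered were Zfp933, at 1.85% with an island in 5 of 22 pools, and Zfp989, at 23.7% ± 7.79. Fewer fingers or more did not go with coverage: over the 19 genes, Pearson's r of H3K9me3 share and finger number was -0.074 (Spearman's rho -0.22), given as a description of genes that share libraries and sequence.

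On chromosome 13, Gm10772 and Gm10324 headed the order with 100% and 92.4% of the body under H3K9me3 (72.2 to 100% for Gm10324). Both are short (0.255 and 3.29 kb), so that 1 island covers them. Next in order, 2410141K09Rik (chr13:66418114-66441118, 14 fingers, KRAB), spans 23 kb and was at 86.4% ± 1.98 for H3K9me3 and 81% ± 5.62 for H3K36me3. Its H3K9me3 share was between 82.8 and 88.8% in every pool, and its H3K36me3 share between 71.6 and 88.8%, which made it the long gene with the most of both marks. Zfp369, which encodes a KRAB zinc-finger protein, followed with 34.3% ± 6.63 and 30.6% ± 13.9. Rsl1, whose protein regulates sex-limited liver genes, and Zfp429 had no H3K9me3 island in any pool.

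H3K36me3 over Gm10772 was at 100% in all male ethanol, male water and female water pools, and at a mean of 33.3% in female ethanol pools, of which 2 of 6 had an island. The gene is 255 bp long, so the value is the presence or absence of 1 island, and it was not tested.

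The share of the body under an island left ethanol and water pools without overlap in 1 zinc-finger gene of the windows, Zfp980 for H3K36me3 in males. Male ethanol pools ranged from 47.1 to 75.9% (median 56.5%) and male water pools from 17.1 to 42.4% (median 35.9%). In females the ranges were 21.8 to 72.4% and 32.4 to 45.9%, which overlap. Of genes with an H3K36me3 island in males, 1 of 42 zinc-finger genes of the windows and 60 of 11029 genes in all (0.544%) were without overlap, and of the 60, 10 were higher and 50 lower in ethanol. No zinc-finger gene was without overlap for H3K36me3 in females (0 of 46, against 0.118% of all genes) or for H3K9me3 in males (0 of 44, against 0.0357%) and females (0 of 40, against 0.140%). In males 5 of 6 ethanol libraries were below the genome's gene-body share, and the part of this was not tested. The male region of Zfp980 had lower H3K36me3 reads in ethanol, as given with the tests of regions, although the share of the gene under an island was higher.

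On chromosome 2, Gm14412 (chr2:177314520-177324307, 15 fingers, KRAB) was the 1 gene with at least 3 finger patterns that had an H3K9me3 island in all 22 pools, over 12.5% ± 1.41 of its body. The same gene had 12.6% under H3K36me3, with 1 female ethanol pool at 50% against a median of 10% in that group. Next came Zfp973 at 2.50% (10 pools), Gm14401 at 2.41% (3 pools) and Gm14443 at 0.742% (1 pool). Gm11007 and Gm14295 had no island of either mark in any pool. None of the 150-base stretches of Gm11007 and 40.6% of those of Gm14295 are found at 1 place, compared with 100% for Gm14412. Of the 4 genes of this window with at least 90% of such stretches, 1 had no H3K9me3 island and 0 reached 50% coverage. On chromosome 4 it was 0 and 4 of 5, and on chromosome 13 it was 9 and 1 of 25.

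Of the genes with fewer than 3 finger patterns, 12 of 16 on chromosome 2, 7 of 12 on chromosome 4 and 8 of 14 on chromosome 13 had no H3K9me3 island in any pool, and 0, 2 and 1 were at 50% or more. The most covered, named after their values were seen, were Gm10139 (100%), Gm16503 (97.6% ± 6.20, 3.28 kb) and Gm21411 (54.7% ± 5.28). Below them were Zfp993 with 2 finger patterns (43.1%) and Zfp972 (chr2:177903340-177925613), where no finger pattern was found in the annotated coding sequence (34.0% ± 6.95). Zfp972 and Cdh26 (9.03% ± 2.05), which encodes a cadherin, also had an island in all 22 pools on chromosome 2. Among the longest of these genes, Vps13d, which encodes a lipid transfer protein, and Ptdss1, which encodes a phosphatidylserine synthase, had no H3K9me3 island in any pool, Phactr3 was at 0.0372%, Zfp831 (2 finger patterns) at 0.0807% and Tnfrsf8, which encodes the receptor CD30, at 0.547%. Mfsd14b on chromosome 13 was at 8.73% ± 4.88. H3K36me3 covered 3.21% of Vps13d, 1.58% of Phactr3, 1.40% of Ptdss1 and 7.08% of Mfsd14b.

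**Figure D3:**
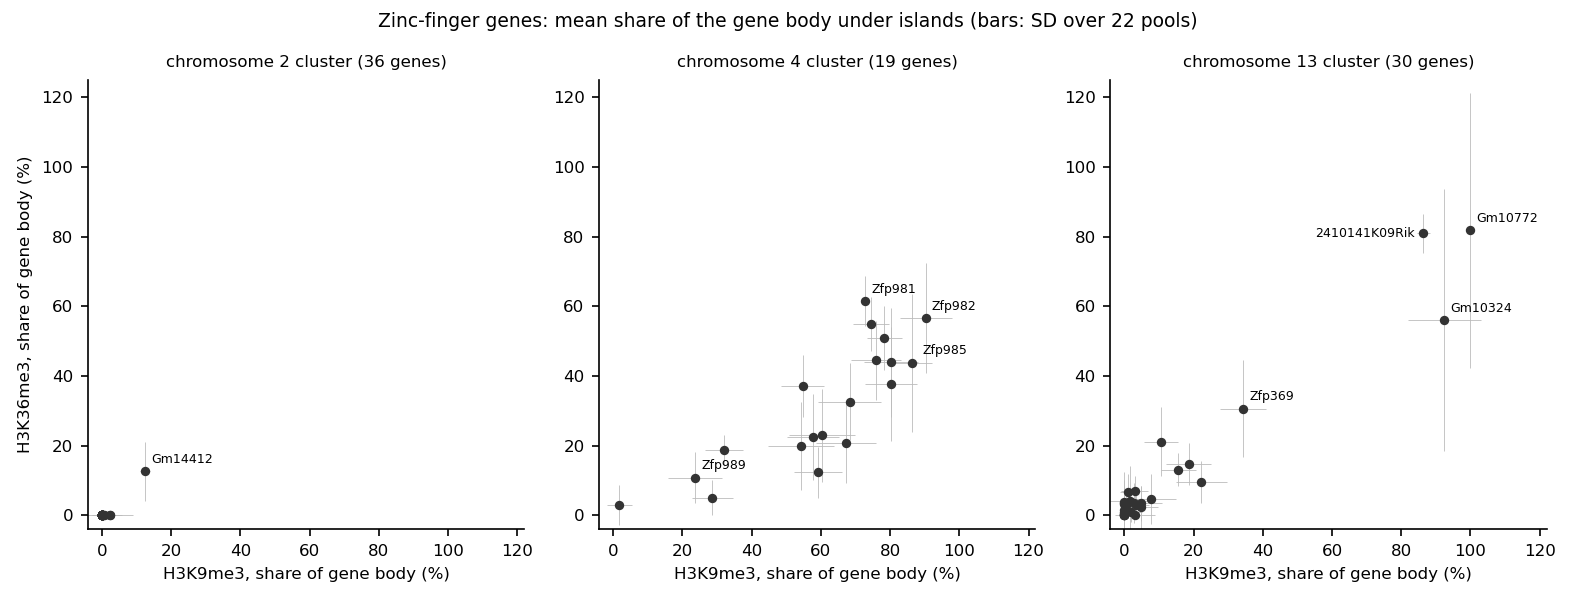
Mean share of the gene body under H3K36me3 islands against that under H3K9me3 islands, in percent, for each zinc-finger gene of the 3 windows, with bars for SD over 22 pools (bars may pass 100%). Genes of chromosome 4 spread along a rising band from Zfp933 to Zfp982, few genes of chromosome 13 leave the corner, and Gm14412 alone does on chromosome 2.

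Genes with more H3K9me3 had more H3K36me3. Over zinc-finger genes, Pearson's r of the mean shares was 0.83 (rho 0.84) on chromosome 4 (19 genes), 0.97 (rho 0.77) on chromosome 13 (30 genes) and 0.96 (rho 0.30) on chromosome 2 (36 genes), where r rests on Gm14412. These values describe genes that share libraries, inputs and similar sequence. Of the H3K36me3 island length, 70.2% ± 9.16 on chromosome 2, 91.6% ± 3.24 on chromosome 4 and 93.7% ± 2.01 on chromosome 13 was also under an H3K9me3 island of the same pool (n = 22). In the other direction, 34.2, 49.4 and 58.8% of the H3K9me3 length was also under H3K36me3. On the autosomes outside the windows the shares were 64.5% ± 8.29 and 40.3%, so that the chromosome 2 values were within the spread between pools of those elsewhere. Of the H3K9me3 length, 12.4, 32.0 and 41.9% was also under H3K36me3 with islands of FDR at most 0.01, against 13.8% outside. The H3K36me3 length also under H3K9me3 was then 89.6 and 92.5% on chromosomes 4 and 13 and 44.6% outside. The input read counts of islands that had the same ends in both marks were equal in 22 of 22 pools, so both marks of a pool were called against 1 input library.

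Within chromosome 4 zinc-finger genes, H3K9me3 was densest at the finger-coding end and at the start. The last coding exon was covered at 83.8% ± 2.52, the start site (within 1 kb) at 79.4% ± 4.61, introns at 58.7% ± 5.19 and sequence between genes at 42.8% ± 3.53 (n = 22 pools). The lowest pool for the last exon (80.1%) lay above the highest for introns (67.6%). H3K36me3 had another order, with 59.5% ± 11.8 at the start, 37.2% ± 18.8 over the last exon and 31.1% ± 6.81 over introns. This order depends on the libraries. In pools at or above the genome's gene-body share the last exon was at 25.5% and introns at 27.7%, and in those below at 48.9 and 34.5%.

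The chromosome 13 cluster was marked between its genes more than within them. H3K9me3 covered 47.2% ± 2.82 of the sequence between protein-coding genes, 9.33% ± 1.82 of last coding exons and 12.2% ± 1.94 of introns of zinc-finger genes. Annotated pseudogenes of this window were covered at 64.7% and long noncoding RNA genes at 53.7%, against 7.42% for protein-coding genes. For H3K36me3 these shares were 44.4, 32.1 and 6.62%. On chromosome 2, 93.1% of the H3K9me3 region length lay outside any annotated gene, where 71.0% of the window lies, and none lay in pseudogenes, which make up 2.24%.

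The next question was whether adolescent binge ethanol went with differential trimethylation in these clusters. Each sex was tested alone with edgeR's quasi-likelihood test, 6 ethanol against 5 water pools, over all regions of the genome with an island in all 11 libraries, at the unadjusted p of 0.05 that the study used. An island may cover only part of a region, and ChIP and input reads are counted only under islands. Where the island of a pool is shorter, both counts fall together. The part of this in the fold changes was not tested. No region in the windows passed Benjamini-Hochberg adjustment over all regions in edgeR for either mark or sex. DESeq2 passed 1, for H3K9me3 in males, and limma on the ratio of ChIP to input reads passed 0.

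For H3K9me3 in males, 15 of 435 regions of the windows were at the unadjusted threshold, 13 higher and 2 lower in ethanol (3.45%), against 2.91% of all 27957 regions tested (1.63% higher and 1.28% lower). In females it was 8 of 387, 6 higher and 2 lower (2.07%), against 3.99% of 27241 (2.15% higher and 1.84% lower). The median log2 fold change over the windows was 0.01 in males and -0.01 in females. Of the male regions 9 lay on chromosome 4, 4 on chromosome 13 and 2 on chromosome 2, and of the female regions 2, 6 and 0. With limma on the ratio of ChIP to input, 15 were higher and 6 lower in males, against 812 and 712 of all regions (5.45%). In females limma gave 26 higher and 6 lower, against 705 and 591 (4.76%). Without TMM factors 7 were higher and 1 lower in females. With regions covered in at least 6 libraries the male count was 6 of 349, and with islands of FDR at most 0.01 the female count was 4 of 310. Without male ethanol pool 1 the male count was 24. The female count was 5 without ethanol pool 4, 14 without water pool 3 and 21 without water pool 4.

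The male H3K9me3 region of smallest p was chr13:66264001-66267400 (3400 bp, between genes, 36428 bp from the start of Gm10772). Normalised reads in male ethanol pools ranged from 20.8 to 53.1 CPM (median 37.3), and male water pools were at 22.2, 21.5, 23.3, 20.3 and 21.2 CPM. Of the ethanol pools, 5 of 6 lay above all water pools and pool 6 lay among them. The log2 fold change was 0.80 ± 0.18 (SE, adjusted p = 0.999 in edgeR), from 104 to 421 reads per pool. DESeq2 gave an adjusted p of 0.0423, and adjusted p ran from 0.0423 to 1.000 over the alternatives. Input reads of the same islands were higher by 0.85 on the log2 scale, and the ratio of ChIP to input reads differed by -0.05, which did not reach the unadjusted threshold in limma. The log2 fold change was 0.04, not past the threshold, with regions covered in at least 6 libraries. In females the log2 fold change was 0.11 ± 0.18.

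At chr4:145470601-145476000, nearest to the start of Zfp990, male ethanol pools ranged from 43.6 to 63.2 CPM (median 54.4) and male water pools were at 36.7, 48.1, 43.8, 41.7 and 38.8 CPM. The groups overlapped, and the log2 fold change was 0.36 ± 0.11 (edgeR, adjusted p = 0.999) with 0.21 in input reads. It was -0.01 with regions covered in at least 6 libraries. At chr13:65678001-65679200, nearest to the start of Gm10139, male ethanol pools ranged from 8.42 to 15.5 CPM (median 11.7) and male water pools were at 5.30, 6.78, 9.04, 6.23 and 9.43 CPM. Here the log2 fold change was 0.68 ± 0.20 (edgeR, adjusted p = 0.999), with 0.56 in input reads. With regions covered in at least 6 libraries it was 0.31 and not past the threshold. The ratio of ChIP to input reads differed by 0.11 in the region nearest Zfp990 and by 0.10 in that nearest Gm10139, neither past the unadjusted threshold of limma. The only male H3K9me3 region of the windows whose groups did not overlap, against 0.372% of all regions, was chr13:65773201-65779600 (log2 fold change 0.19, edgeR, adjusted p = 0.999, 0.22 in input reads), chosen here after its values were seen.

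The female H3K9me3 region of smallest p lay in Zfp984, a KRAB zinc-finger gene of chromosome 4 (chr4:147804201-147806600). Female ethanol pools ranged from 17.4 to 23.7 CPM (median 21.8), and female water pools were at 19.1, 13.5, 16.5, 9.03 and 11.3 CPM. Water pool 1 lay within the ethanol range and the other 4 below it. The log2 fold change was 0.61 ± 0.18 (edgeR, adjusted p = 0.999), with 0.46 in input reads and 0.18 in the ratio of ChIP to input, not past the unadjusted threshold of limma. With regions covered in at least 6 libraries, it was 0.06 and not past the threshold. In males the log2 fold change there was -0.02 ± 0.11. The other 2 regions of smallest p in females lay on chromosome 13. At chr13:65722801-65726400 (nearest Gm10139) the log2 fold change was 0.47 ± 0.16 with 0.44 in input reads, and at chr13:65890801-65892000 (nearest Gm10324) it was 0.35 ± 0.13 with 0.08 in input reads. The ratio of ChIP to input differed there by 0.05 and 0.27, neither past the unadjusted threshold of limma. Ethanol and water pools overlapped in all 3, and 0 of 387 regions were without overlap in females, against 0.382% of all regions.

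For H3K36me3 in males, 20 of 216 regions of the windows were at the threshold, 7 higher and 13 lower in ethanol (9.26%), against 5.72% of 7532 regions tested (2.70% higher and 3.03% lower). Of these, 11 lay on chromosome 4, 8 on chromosome 13 and 1, in Gm14412, on chromosome 2. The direction of this count depends on the scaling. Without TMM factors the median of all regions moved from 0.01 to 0.18, and in the windows 13 regions were higher and 2 lower. With limma on the ratio of ChIP to input, 8 were higher and 9 lower, against 177 higher and 344 lower of all regions (6.92%). With islands of FDR at most 0.01, where an island was required in 8 rather than 11 of 11 libraries, 0 of 121 regions were called, and 0 of 795 over the genome. A fit that calls no region of the genome at an unadjusted threshold cannot decide about the windows. Among pools at or above the genome's gene-body share, ethanol pool 5 is alone against 5 water pools and is assumed to vary like them. The 12 regions called there, 0 higher and 12 lower, are a profile of that 1 pool, against 5.03% of all regions in the same fit.

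In females 9 of 215 H3K36me3 regions were at the threshold, 9 higher and 0 lower in ethanol (4.19%), against 3.60% of 9018 regions (1.77% higher and 1.83% lower). They lay on chromosome 4 (4 regions) and chromosome 13 (5 regions). Over the 215 regions the median log2 fold change was 0.08, with 156 above 0, against a median of 0.00 over all regions. Without TMM factors 8 were higher and 0 lower. In the pools at or above the genome's share, 3 ethanol against 2 water, 10 were higher and 3 lower, with 3.55% of all regions called. The ratio of ChIP to input reads (limma) called 21, 19 higher and 2 lower, against 222 and 232 of all regions (5.03%). With islands of FDR at most 0.01 in 8 of 11 libraries, 0 of 148 were called, and 0 of 1821 over the genome, so that this fit cannot decide about the windows.

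The male H3K36me3 region of smallest p was chr13:65845401-65847800, between genes and nearest to the start of Gm10324. Male ethanol pools ranged from 54.5 to 103 CPM (median 61.7), and male water pools were at 95.8, 87.5, 111, 114 and 108 CPM. Ethanol pool 5, at 103 CPM, lay among the water pools and the other 5 ethanol pools below them. The log2 fold change was -0.60 ± 0.15 (edgeR, adjusted p = 0.775), with -0.28 in input reads and -0.33 in the ratio of ChIP to input, past the unadjusted threshold of limma. Ethanol pool 5 is the 1 male ethanol pool at or above the genome's gene-body share, and with it alone against the water pools the log2 fold change was -0.01. The part of the low gene-body signal of the other 5 ethanol libraries was not tested.

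At chr4:147431801-147433000, nearest to the start of Zfp982, the male groups did not overlap. Male ethanol pools ranged from 25.6 to 38.4 CPM (median 30.7), and male water pools were at 42.5, 47.3, 43.2, 51.9 and 60.3 CPM. The log2 fold change was -0.66 ± 0.17 (edgeR, adjusted p = 0.775), with -0.38 in input reads. With ethanol pool 5 alone against the water pools it was -0.91, a value of 1 pool, and for the ratio of ChIP to input it was -0.29 (limma, not past the unadjusted threshold). With regions covered in at least 6 libraries, it was -0.11 and also not past the threshold. It was the only region of 216 without overlap, against 0.597% of all regions, and from 30 to 95 reads stood behind each pool. At chr4:145486201-145488000, nearest to Zfp990, the log2 fold change was -0.49 ± 0.15 (edgeR, adjusted p = 0.845) with -0.09 in input reads and -0.40 in the ratio of ChIP to input, past the unadjusted threshold of limma. Water pool 5, at 43.8 CPM, lay within the ethanol range there. With regions covered in at least 6 libraries it was 0.00, with islands of FDR at most 0.01 -0.95 (not past the threshold), and with ethanol pool 5 alone -0.37. Of the 20 male regions, 9 overlapped zinc-finger genes, with adjusted p of 0.845 to 0.867 in edgeR. Reads were lower in ethanol in 7 of them, with log2 fold changes of -0.54 in Zfp369, -0.46 in Zfp600, -0.53 in Zfp980, -0.58 in Zfp953, -0.36 in Gm14412, -0.63 in Zfp987 and -0.30 in Zfp992. They were higher in Gm10324 (0.44) and Gm13212 (0.65). Input reads differed in the same direction in all 9, by -0.58 to -0.08 in the lower and by 0.33 and 0.72 in the higher ones. The ratio of ChIP to input had the other sign in 3 of the 9, namely Gm14412 (0.09), Zfp987 (0.07) and Gm13212 (-0.19). In limma it was past the unadjusted threshold in Zfp369 (-0.30), Zfp980 (-0.32) and Zfp953 (-0.54) and in none of the other 6.

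In females, the region of smallest p for H3K36me3 was chr4:145860401-145864400, 4394 bp from the start of Zfp986. Female ethanol pools ranged from 72.8 to 88.5 CPM (median 81.1), and female water pools were at 55.8, 58.7, 64.6, 50.1 and 63.2 CPM. The groups did not overlap, and the log2 fold change was 0.46 ± 0.10 (edgeR, adjusted p = 0.995). Input reads were higher by 0.74 on the log2 scale, and the ratio of ChIP to input was lower in ethanol (-0.26 on the log2 scale, past the unadjusted threshold of limma), so the direction turned when input was taken into account. It was 0.39 in the pools at or above the genome's share and -1.0 with islands of FDR at most 0.01. The other region without overlap, of 2 in 215 against 0.466% of all regions, was chr13:66241001-66245400 (log2 fold change 0.32, edgeR, adjusted p = 0.995, with 0.19 in input reads), nearest to Gm10772.

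At chr4:147455201-147461200, nearest to the start of Zfp982, female ethanol pools ranged from 85.3 to 133 CPM (median 109) and female water pools were at 78.7, 43.8, 96.6, 39.5 and 93.5 CPM. The log2 fold change was 0.62 ± 0.22 (edgeR, adjusted p = 0.995), with 0.24 in input reads and 0.44 in the ratio of ChIP to input, past the unadjusted threshold of limma. Water pools 3 and 5 lay within the ethanol range and pools 1, 2 and 4 below it. In the pools at or above the genome's share, 3 ethanol against 2 water, the log2 fold change was 0.74. Male pools gave -0.05 ± 0.17 in this region. At chr4:145497601-145500400, nearest to Zfp990, the female log2 fold change was 0.37 ± 0.13 (edgeR, adjusted p = 0.995), with 0.17 in input reads and 0.16 in the ratio of ChIP to input (limma, not past the threshold). It was 0.33 in the pools at or above the genome's share, 0.11 with islands of FDR at most 0.01 and 0.13 with regions covered in at least 6 libraries, none past the unadjusted threshold.

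**Figure D4:**
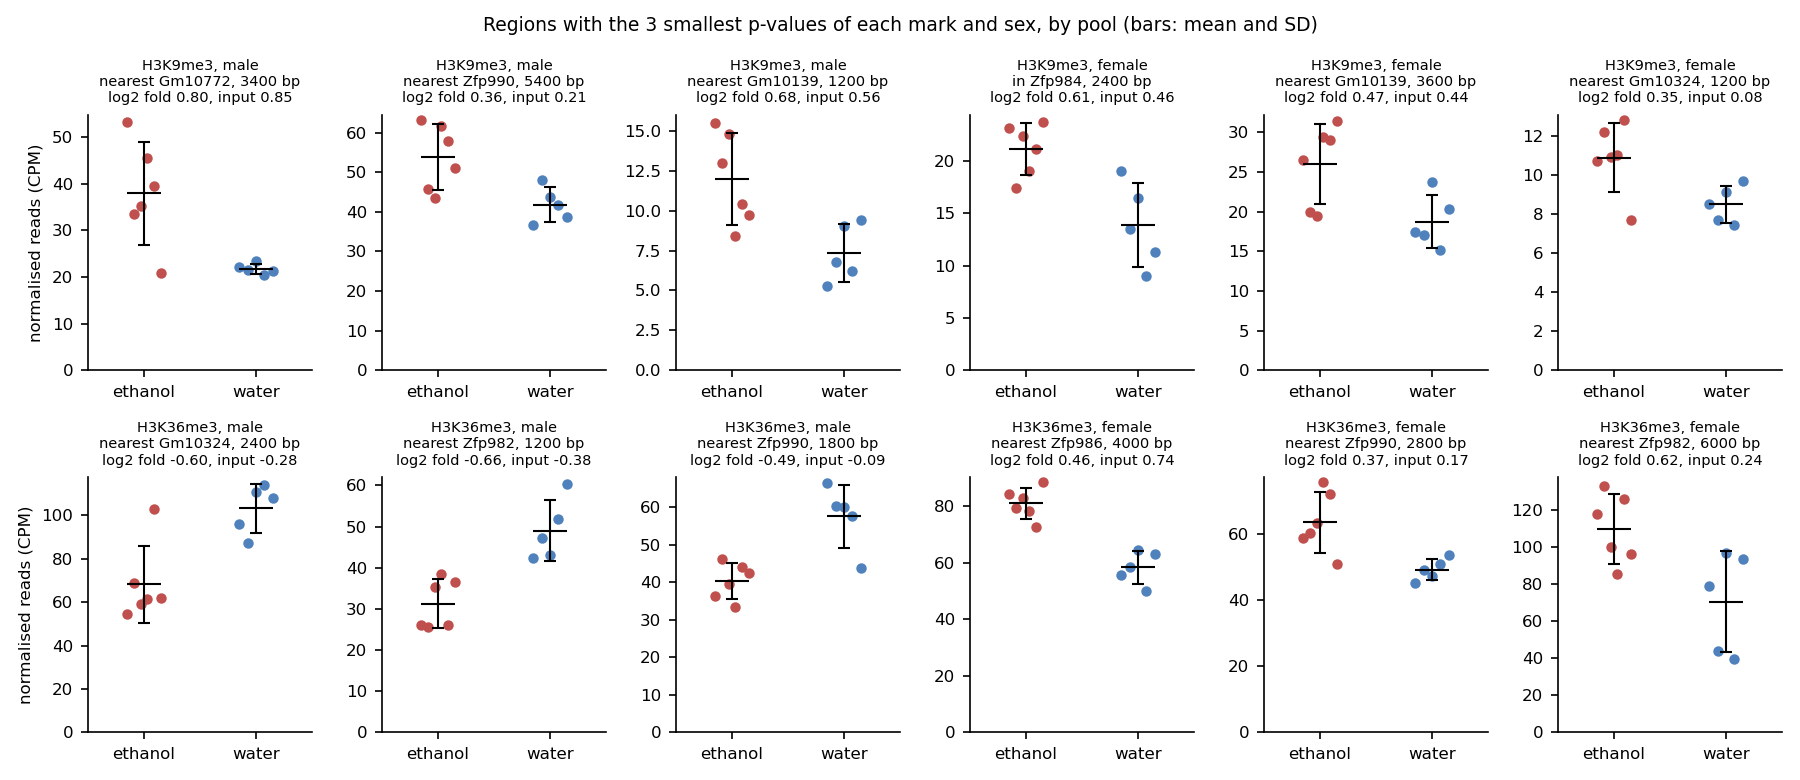
Normalised reads (CPM) per pool in the 3 regions of smallest p of each mark and sex, ethanol and water side by side, with bars for mean and SD, and above each panel the nearest gene, the length, the log2 fold change and the log2 fold change of input reads. The groups separate only in the male H3K36me3 region nearest Zfp982 and the female H3K36me3 region nearest Zfp986, and input reads moved the same way as ChIP reads in all 12 regions. Both counts take in only the part of a region that lies under an island of the pool.

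Whether ethanol and water differed by another amount in females than in males was tested as an interaction, where each of the 22 libraries had an island. For H3K9me3, 9 of 374 regions were at the unadjusted threshold, 4 with a larger and 5 with a smaller log2 fold change in females (2.41%), against 3.62% of 22077 (1.84% larger and 1.78% smaller). The H3K9me3 count was 4 of 301 with regions covered in at least 6 libraries. For H3K36me3, it was 12 of 191, 11 larger and 1 smaller (6.28%), against 5.95% of 5760 (2.78% larger and 3.18% smaller). The H3K36me3 split also turned with the scaling: without TMM factors the median of all regions moved to -0.20, and 1 region was larger and 4 smaller. For H3K9me3, limma on ChIP over input gave 12 larger and 6 smaller, against 524 and 548 of all regions (4.86%). For H3K36me3 it gave 13 larger and 0 smaller, against 237 and 166 (7.0%). With islands of FDR at most 0.01 in 16 of 22 libraries it was 0 of 112, and 0 of 800 over the genome, so that this fit cannot decide about the windows. None passed adjustment in edgeR, DESeq2 or limma. The region of smallest p for H3K36me3 was again chr13:65845401-65847800 (female minus male 0.93 ± 0.26, edgeR, adjusted p = 0.744), with -0.60 in males and 0.32 in females. For H3K9me3 it was chr4:146272401-146275800, nearest to Zfp600, with 0.36 in males and -0.20 in females (difference -0.56 ± 0.17, edgeR, adjusted p = 1.000).

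Bins of 0.5 Mb, which also take in islands gained or lost, differed little in H3K9me3 on chromosomes 4 and 13. Log2 fold changes there lay between -0.15 and 0.10 in both sexes. For H3K36me3 the lowest was -0.67 ± 0.39 in males, at chr13:67500001-68000000, and none was at the unadjusted threshold of edgeR for either mark. On chromosome 2, 1 of 21 H3K9me3 bins of the windows was at the threshold in males, higher in ethanol, against 3.12% of all bins (2.07% higher and 1.05% lower). In females it was also 1 of 21, higher in ethanol, against 4.70% (2.54% higher and 2.16% lower). For H3K36me3 it was 2 of 20 in males, 1 higher and 1 lower, against 13.8% (7.57% higher and 6.19% lower). In females 1 of 20 was lower, against 1.61% (0.537% higher and 1.07% lower). In 0 bins of the windows were the groups without overlap, against 0.239 and 0.480% of all H3K9me3 bins in males and females and 1.97 and 0.153% of H3K36me3 bins. No bin passed adjustment in edgeR or DESeq2.

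In males, H3K9me3 at chr2:176500001-177000000 was higher in ethanol, at 179, 198, 177, 187, 215 and 201 CPM in ethanol and 164, 174, 169, 190 and 145 CPM in water pools (log2 fold change 0.19 ± 0.08, edgeR, adjusted p = 0.998). The ranges overlapped at water pool 4. In females, H3K9me3 at chr2:175000001-175500000 was at 126 to 138 CPM in ethanol pools and at 115, 92.1, 143, 93.0 and 127 CPM in water pools (0.23 ± 0.11, edgeR, adjusted p = 0.953). Input reads differed by 0.14 and 0.23, and the ratio of ChIP to input by 0.05 and 0.01, neither past the unadjusted threshold of limma. With islands of FDR at most 0.01 the count was 0 in both sexes, with a replicate block it was 0 in males, and without TMM factors it was 0 in females. The male count was 2 without ethanol pool 1 and 0 without ethanol pool 5 or water pool 5. The female count was 0 without any one of ethanol pools 1, 2, 3, 4 and 6 or water pools 1, 2 and 4, 3 without water pool 3 and 2 without water pool 5.

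H3K36me3 at chr2:177500001-178000000 was at the unadjusted threshold in both sexes, with log2 fold changes of opposite sign. Male ethanol pools were at 191 to 283 CPM (mean 230 ± 30.5) and male water pools at 148, 147, 217, 194 and 202 CPM (log2 fold change 0.34 ± 0.15, edgeR, adjusted p = 0.352). Female ethanol pools were at 146 to 234 CPM (mean 174 ± 31.9) and female water pools at 243, 213, 215, 257 and 215 CPM (-0.39 ± 0.15, edgeR, adjusted p = 1.000). Input reads differed by 0.23 and -0.36, and the ratio of ChIP to input by 0.10 and -0.03, neither past the unadjusted threshold of limma. The difference between the sexes was not tested for bins. At chr2:178000001-178500000 male ethanol pools were lower, with a mean of 100 ± 33.6 against 171 ± 52.4 CPM (-0.77 ± 0.27, edgeR, adjusted p = 0.304), with -0.78 in input reads of the islands and -0.03 in the ratio of ChIP to input (limma, not past the threshold). Among pools at or above the genome's gene-body share the count of H3K36me3 bins was 0 in both sexes, which says little with 1 ethanol against 5 water pools in males and 3 against 2 in females. With limma on ChIP over input or with islands of FDR at most 0.01 the male count was 0, and with a replicate block the female count was 0. The 1 female bin called with islands of FDR at most 0.01 was higher in ethanol. The male count was 1 without any one of ethanol pools 1, 3, 4 and 6 or water pools 1 and 2, and the female count was 2 without ethanol pool 6 and 0 without water pool 1 or 4.

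**Figure D5:**
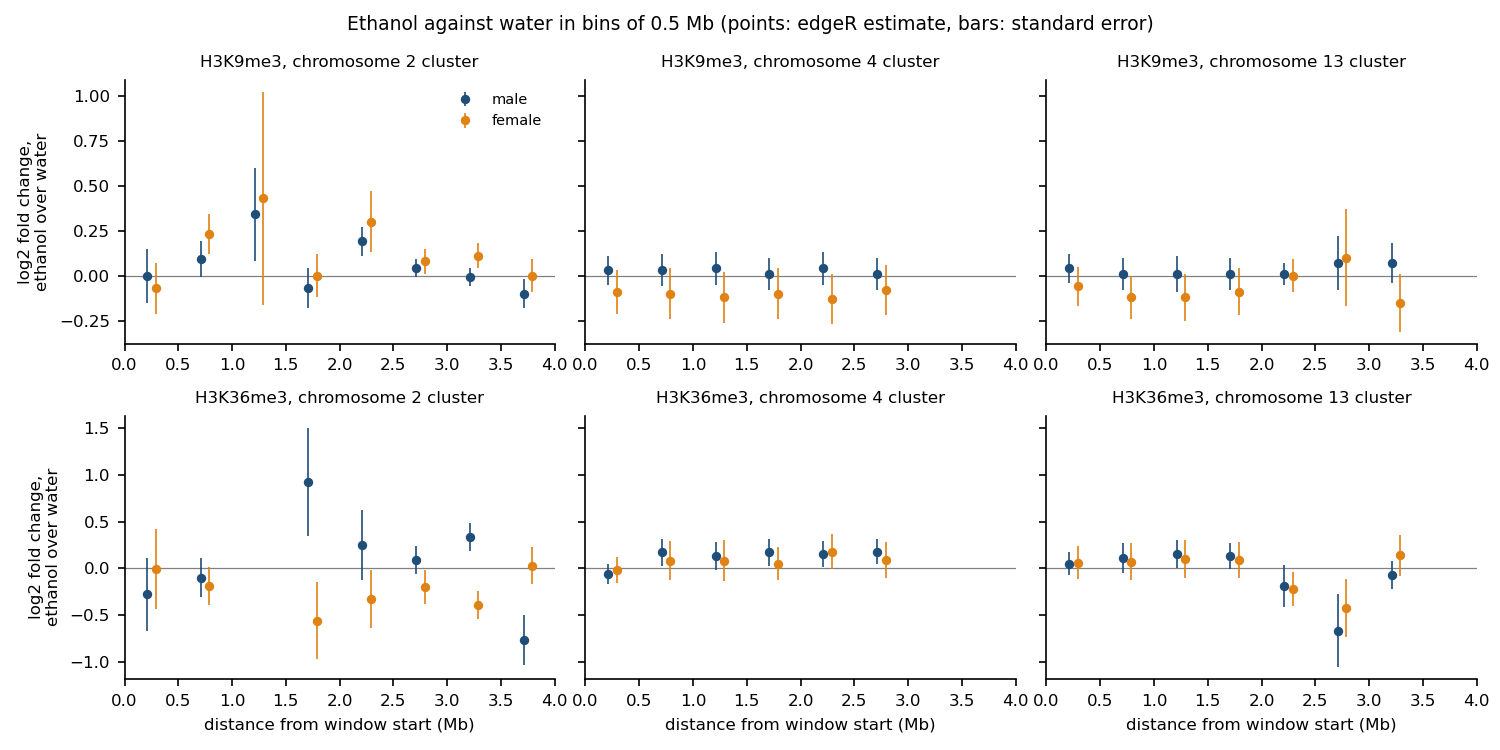
Log2 fold change of ethanol over water in 0.5-Mb bins (points, edgeR, bars for standard error) against the distance from the start of the window in Mb, males and females in separate colours, H3K9me3 above and H3K36me3 below. H3K9me3 bins of chromosomes 4 and 13 stay between -0.15 and 0.10, and the bins at the unadjusted threshold of edgeR are all on chromosome 2.

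Genes of the machinery that writes, reads or removes these marks at zinc-finger genes were looked at beside the clusters, from a list of 25 annotated genes. H3K36me3 islands lay on the body of 23 of them in at least 1 pool and of 12 in at least 11 pools, among them Setd2 (12 pools), the H3K36 methyltransferase, and Nsd1 (20 pools). Trim28, the KRAB corepressor, had an H3K36me3 island in 7 pools and Setdb1 in 10. H3K9me3 islands lay on 7 of the 25, in all 22 pools for Smchd1, a chromatin protein of the inactive X chromosome, and for Kdm4d, an H3K9 demethylase (14.1% of the body). Tested H3K9me3 regions lay in 2 of these genes in males and 1 in females, and H3K36me3 regions in none. None of them was at the unadjusted threshold, which says little with so few regions.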

How the data were processed

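ChIP-seq libraries of H3K9me3 and H3K36me3 and input libraries of PFC were grouped by sex and treatment from their titles (6 ethanol and 5 water pools per sex). The authors combined 8 technical replicates of each precipitation. For H3K9me3 the authors trimmed single-end reads (CutAdapt) and aligned them to GRCm38 (mm10, Bowtie2). Reads in blacklisted sequence or with several matches were removed, and SICER islands were called per library with the pool's input as control. Per the submitters' processing notes the tools were FastQC, cutadapt, Bowtie2 2.4.1 and SICER, with GRCm38 and mm10 as builds, for all samples. Whether multiply mapped H3K36me3 reads were discarded is not given in the sources used here. The deposited lists give raw counts of ChIP and input reads per island, and the smallest distance between islands was 600 bp for H3K9me3 and 800 bp for H3K36me3. The authors' p-values and q-values (FDR) compare ChIP reads with scaled input reads, and the authors' fold is the ratio of ChIP to input reads scaled by 1 constant in each library. No FDR filter had been applied to the lists. Input libraries entered only through the lists, and depth is known only inside islands.

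Regions were positions, on the 200-bp grid of the lists, covered by islands of at least 11 of 22 libraries of a mark. Reads of an island were apportioned to regions, and to bins of 0.5 Mb, by overlapped length. An island over any part of a region counted as an island there, and reads outside islands did not enter. Regions with an island in all 11 libraries of a sex (all 22 for the interaction) were tested genome-wide with edgeR 4.0.16 (filterByExpr, TMM, quasi-likelihood, two-sided, Benjamini-Hochberg over all regions or bins) in R 4.3.3. The unadjusted threshold of 0.05 followed the study. Values per pool are TMM-scaled CPM, that is, counts relative to the effective library size. Alternatives were DESeq2 1.42.0, no TMM factors, limma 3.58.1 on log2 ChIP over input reads (0.5 added to each), islands of FDR at most 0.01, regions covered in at least 6 libraries, a replicate block and leaving out each pool. For H3K36me3 regions under FDR at most 0.01, an island was required in 8 of 11 (interaction 16 of 22) libraries, since 61 male, 189 female and 45 interaction regions had one in all, so that 2 choices changed at once. The restriction of H3K36me3 to libraries with the genome's share of gene bodies was chosen after seeing the data. The fits were tested on simulated data. Ethanol and water pools were not paired by number in the main fits: deviations of same-numbered pools correlated between -0.121 and 0.072 over 20 pairs.

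Named genes were, in each window, the 4 zinc-finger genes with the largest and the 2 with the smallest H3K9me3 share, the 2 with the largest H3K36me3 share, the 2 longest genes with fewer than 3 finger patterns, and the genes at the 3 tested regions of smallest p of each mark and sex. Windows, members, lists and rules were chosen with earlier results of these data known. Zinc-finger genes hold at least 3 C2H2 patterns in the translated GENCODE vM21 coding sequence. Uniqueness counts exact copies, on both strands of GRCm38.p6, of 150-base stretches. Coverage, gene shares and motifs are descriptions without a test. Tables were made in Python 3.11.15 with numba 0.67.0, pandas 2.3.3, numpy 2.4.6 and scipy 1.17.1, and plots with matplotlib 3.10.9.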

Additional observations from a re-analysis of the deposited data

Results flagged for a closer look

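Among 84 groups of 5 or 6 pools, 9 (10.7%) held a pool far from the others of its group by Dixon's criterion, which chance gives in about 1 of 20 groups. Several of them concern the same libraries.

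Female ethanol pool 2 was the highest for H3K36me3 coverage on chromosome 4 (34.2%, next 23.2%) and on chromosome 13 (33.2%, next 24.6%). Male water pool 1 was the lowest for H3K36me3 coverage on chromosome 13 (17.9%, next 23.4%) and the highest for the median H3K36me3 fold on chromosome 2 (1.51, next 1.25) and on chromosome 4 (1.49, next 1.31). Female water pool 4 was the lowest for H3K36me3 coverage on chromosome 2 (2.06%, next 3.19%). Male water pool 5 had the lowest share of H3K36me3 length also under H3K9me3 on chromosome 4 (90.2%, next 93.2%). For H3K9me3, female ethanol pool 6 had the highest median fold on chromosome 13 (2.55, next 2.36). In the male H3K36me3 region at chr13:65845401-65847800, ethanol pool 5 was at 103 CPM and the next ethanol pool at 69.0 CPM.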

How the results depend on the processing

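The high H3K9me3 coverage of the windows on chromosomes 4 and 13 held under every FDR limit tried. At an FDR of at most 1e-05 it was 39.5% on chromosome 4, 36.2% on chromosome 13, 3.89% on chromosome 2 and 3.18% outside the windows. H3K36me3 coverage fell with the limit, to 1.17, 14.7 and 17.1% on chromosomes 2, 4 and 13 at 0.01 and to 0.277, 6.81 and 9.39% at 1e-05. The share of H3K36me3 length also under H3K9me3 on chromosome 2 was 55% at 0.01.

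Counts at the unadjusted threshold were within 1.5 times the reported ones in 51 of 78 settings other than leaving out a pool. With limma on ChIP over input, H3K9me3 regions numbered 32 in females and 18 for the interaction, H3K36me3 regions 21 in females, H3K9me3 bins 2 in each sex and H3K36me3 bins 0 in males and 2 in females. With islands of FDR at most 0.01, they were 4 H3K9me3 regions in females, 0 H3K36me3 regions in males, in females and for the interaction, 0 H3K9me3 bins in either sex and 0 H3K36me3 bins in males. The H3K36me3 region fits at this limit called no region over the genome either, so their counts cannot decide about the windows. With regions covered in at least 6 libraries, 6 H3K9me3 regions were called in males and 4 for the interaction. Without TMM factors, there were 5 H3K36me3 regions for the interaction and 0 female H3K9me3 bins. In libraries with the genome's share of gene bodies, there were 12 H3K36me3 regions in males, where 1 ethanol pool is assumed to vary like the others, and 0 H3K36me3 bins in either sex. Over the pools left out in turn, H3K9me3 regions ranged from 12 to 24 in males and 5 to 21 in females, H3K36me3 regions from 14 to 24 and 8 to 12, H3K9me3 bins from 0 to 2 and 0 to 3, and H3K36me3 bins from 1 to 2 and 0 to 2. The causes were not tested.

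With a replicate block over pools 1 to 5, H3K9me3 regions numbered 13 in males, 9 in females and 11 for the interaction, and H3K36me3 regions 17, 8 and 15. The block gave 0 male and 1 female H3K9me3 bins, 1 male and 0 female H3K36me3 bins. The same pools without the block gave 1, 0, 1 and 2 bins. No pair of same-numbered ethanol and water pools correlated over 0.1, and 2 of 20 correlated best with their own number. No shared deviation was thus seen, which cannot exclude that such pools were processed together.

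Of 230 settings of the 12 named regions, 204 kept direction and threshold, 21 lost the threshold and 5 changed sign: H3K9me3 in males nearest Gm10772 (-0.05, limma) and nearest Zfp990 (-0.01, at least 6 libraries), H3K36me3 in males nearest Zfp990 (0.00, at least 6 libraries) and in females nearest Zfp986 (-0.26, limma, and -1.0, FDR at most 0.01). The regions were picked for their small p in these data, and most settings only left out a pool. The count is thus no measure of support. With limma on ChIP over input, direction and threshold were kept only for H3K36me3. This held at chr13:65845401-65847800 and chr4:145486201-145488000 in males and at chr4:147455201-147461200 in females. In the named regions a pool had 28 to 571 reads in male and 32 to 167 in female H3K9me3 regions, and 26 to 171 and 41 to 242 in H3K36me3 regions. The part of depth in these results was not tested.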
